A study of Mus musculus with 12 samples.

Results

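Vincristine (VCR) was added to nanoparticles carrying the FOXM1 inhibitor RCM1 in mice bearing rhabdomyosarcoma (RMS), a soft tissue cancer of cells with features of skeletal muscle. The 3 tumors titled VCR+RCM were compared with the 3 titled RCM, chosen by their titles, so that 6 of the 12 tumors of the series entered the comparison. Every mouse was wild type, of the strain C57/Bl6J, 8 to 12 weeks old, and carried a subcutaneous tumor in the flank grown from Rd76-9, a single mouse embryonal RMS line that a methylcholanthrene-induced tumor of a female mouse gave rise to. RCM1 was packed in nanoparticles that carry folic acid (RCM1-NPFA) and given intravenously at 8 µg every 48 hours. The combination tumors also received VCR at 0.25 mg/kg every 7 days into the peritoneal cavity. The remaining 6 tumors are 3 from mice given vehicle, in the study saline and empty nanoparticles, and 3 given the same VCR dose without RCM1. They were used as a second setting in which VCR was added. Tumors were taken on day 16, and the polyadenylated RNA of the whole tumor was sequenced, so that fewer cells of a type and less RNA per cell cannot be told apart in any result. The treatment label of the vehicle tumors also names RCM1 nanoparticles, while their titles say control. They were grouped by title. The labels name no batch. They do not say what the tumors of a group share beyond the treatment, so p-values measure the spread between these tumors.

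VCR binds tubulin, the subunit of microtubules, and blocks the mitotic spindle, so that dividing cells stop in mitosis at the spindle checkpoint. FOXM1 is a transcription factor that switches on genes of the G2 phase and of mitosis, among them cyclin B1, Aurora B and PLK1, and RCM1 keeps it out of the nucleus. Both agents thus meet in mitosis, and the comparison asks what VCR changes in tumors that already receive the FOXM1 inhibitor. Tumor RNA also holds transcripts of blood, vessels, immune cells and nearby tissue of the host, whose genes are given beside those of the tumor cells.

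Estimated counts per tumor ran from 29337835 to 32103617 in the 12 tumors and from 30267217 to 32103617 in the 6 compared, so depth was even. Levels are given as CPM, the count scaled to a common library size, in the order of the tumor numbers, m7, m8 and m9 for RCM1 and m10, m11 and m12 for the combination. Myf5, a muscle lineage factor, stood between 48.9 and 59.9 CPM in the 6 tumors, and Cdh15, the muscle cadherin, between 155 and 181 CPM, whereas Myod1, the regulator of muscle fate that defines many RMS, was at or under 0.712 CPM in all but m9 (2.30 CPM). The 22 genes of mature muscle fibres varied widely among the tumors. Their summed level was 395, 522 and 19410 CPM in the RCM1 tumors and 2522, 4894 and 744 CPM in the combination tumors, so that m9 stood apart. Xist and the Y-linked genes also differed between tumors, with Xist at 69.4 CPM in m7 and 71.9 CPM in m10 and at or under 0.670 CPM in the other 4, so each group held 1 such tumor.

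No gene differed between the combination and RCM1 tumors at an adjusted p under 0.1 (edgeR quasi-likelihood test, 17599 genes tested, Benjamini-Hochberg adjustment). The share called was thus 0%, and 364 genes (2.07%) had an unadjusted p under 0.05. The smallest adjusted p was 0.9999. The median log2 fold change of all genes was -0.01, and 47.9% of genes had a value above 0. Every combination tumor lay above every RCM1 tumor for 572 genes (3.25%) and below every RCM1 tumor for 463 genes (2.63%). These shares are the background for each list of genes that follows. DESeq2 fitted to the 6 tumors alone called 13 genes (0.0739%), 1 higher and 12 lower in the combination tumors, and DESeq2 fitted to all 12 tumors called 0, with 322 genes at an unadjusted p under 0.05. Over all pairs, tumors of one group were about as unlike as tumors of different groups, which rested in part on m9. Over the 6 pairs within a group, the chi-square of the counts per degree of freedom was 20.2 to 76.2 (median 30.4), and over the 9 pairs between the groups it was 21.4 to 72.5 (median 30.9). The pairs of m9 with m7 and m8 gave 68.2 and 76.2. Pairs without m9 gave 24.0, 20.6, 36.9 and 20.2 within a group and 21.4, 29.2, 21.8, 28.45, 34.5 and 30.9 between the groups. No pair agreed within sampling noise.

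**Figure D1:**
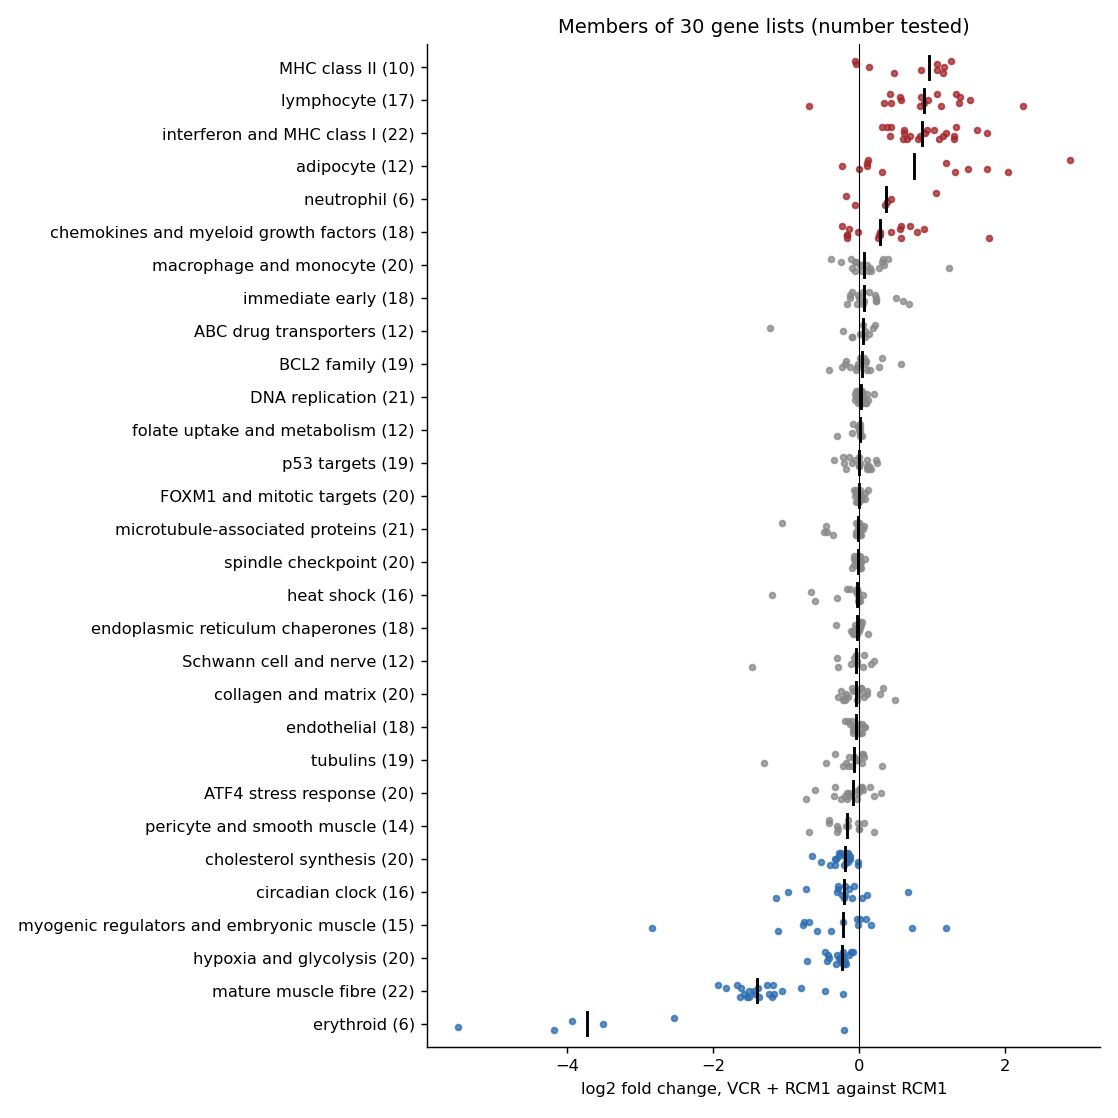
Log2 fold change between the combination and RCM1 tumors (horizontal axis) of the tested members of 30 gene lists (rows, sorted by median). Each point is 1 gene and each black bar a list's median; the colors mark medians above 0.25 in red and below -0.19 in blue. All 22 interferon genes lie right of 0, and haemoglobin genes lie furthest to the left. Medians of the mitotic and tubulin lists lie near 0, with members of the tubulin list from -1.30 to 0.31.

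Interferon genes had values above 0 throughout, although no member passed the test and their sum overlapped between the groups. Interferons are secreted signals that switch on antiviral genes such as the OAS enzymes, which sense double-stranded RNA, and genes that load peptides on MHC class I. All 22 members of the list of interferon and MHC class I genes had a log2 fold change above 0, from 0.31 to 1.76, with a median of 0.87 against -0.01 for all genes. Of the 22, 10 had an unadjusted p under 0.05 and 2, Irf7 and Oasl2, did not overlap between the groups. None of the 22 was called, as for all genes (0%). The summed level of the list was 2715, 1456 and 2228 CPM in the RCM1 tumors and 1739, 4236 and 6334 CPM in the combination tumors, so that m10 lay below m7 and m9. The median of the list was between 0.39 and 1.14 when any 1 of the 6 tumors was left out, the lowest without m12, and 22 of 22 stayed above 0 without m12.

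The promoters of these genes are shown because several carry the sequence that interferon-activated factors are known to bind, 2 GAAA blocks separated by 2 bases (GAAANNGAAA). The motif was searched on both strands from 250 bases before to 50 bases after the RefSeq start (GRCm38.p6), and overlapping matches count once per gene. It occurred in 3.44% of 32851 promoters and in 520 of the 13516 tested genes with a promoter in the table (3.85%). In the interferon and MHC class I list 9 of the 18 genes with a promoter held it (50%). Among the genes with the smallest p that did not overlap between groups, 3 of 7 higher genes and 0 of 6 lower genes held it. The 150 bases before the start are given 5′ to 3′ on the gene's own strand, with matches in capitals. Oas3 lies at chr5:120777660-120777809 on the minus strand, Ifi213 at chr1:173599273-173599422 on the minus strand, Oas1g at chr5:120887614-120887763 on the minus strand, Isg15 at chr4:156200819-156200968 on the minus strand and Irf7, which has no match in this window, at chr7:141266425-141266574 on the minus strand.
Oas3: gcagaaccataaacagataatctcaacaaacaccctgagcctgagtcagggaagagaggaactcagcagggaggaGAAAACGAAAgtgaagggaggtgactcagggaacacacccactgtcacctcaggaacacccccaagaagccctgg
Ifi213: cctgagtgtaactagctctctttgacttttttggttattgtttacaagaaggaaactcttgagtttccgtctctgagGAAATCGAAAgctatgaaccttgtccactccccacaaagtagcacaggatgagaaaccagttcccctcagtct
Oas1g: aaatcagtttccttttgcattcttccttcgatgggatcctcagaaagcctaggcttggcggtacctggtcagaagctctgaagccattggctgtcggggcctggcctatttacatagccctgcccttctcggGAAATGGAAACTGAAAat
Isg15: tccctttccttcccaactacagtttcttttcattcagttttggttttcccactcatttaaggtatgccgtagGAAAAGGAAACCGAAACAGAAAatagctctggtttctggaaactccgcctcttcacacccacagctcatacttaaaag
Irf7: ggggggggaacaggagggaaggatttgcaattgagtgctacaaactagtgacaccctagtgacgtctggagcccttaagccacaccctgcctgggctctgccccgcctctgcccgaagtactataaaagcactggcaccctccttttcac
The first match begins 75 bases before the start in Oas3, 73 in Ifi213, 18 in Oas1g and 78 in Isg15, and in the latter 2 genes matches overlap. A match describes the letters only.

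The OAS genes Oas1g, Oas2 and Oas3, and Ifi213 and Lgals3bp, are not on the list and were named because they had the smallest p among genes without overlap. Oas3, an enzyme that makes 2-5A upon sensing double-stranded RNA, was at 6.56, 4.09 and 6.42 CPM in the RCM1 tumors and at 10.2, 8.99 and 19.2 CPM in the combination tumors. The groups did not overlap, and m12 was highest. Its log2 fold change was 1.17 ± 0.28 (SE), which was not called (edgeR adjusted p 0.9999). Oas2 was at 14.8, 9.83 and 11.02 CPM against 23.0, 15.6 and 30.3 CPM, a log2 fold change of 0.95 ± 0.25 (SE), and Oas1g at 4.60, 3.29 and 4.22 CPM against 6.18, 7.21 and 13.8 CPM, a log2 fold change of 1.17 ± 0.33 (SE). The OAS genes lie side by side on chromosome 5 and are close relatives, so the split of reads among them is uncertain. Irf7, the transcription factor that amplifies type I interferon, was at 25.5, 18.04 and 22.03 CPM against 31.2, 34.0 and 80.9 CPM (log2 fold change 1.16 ± 0.30, SE). Ifi213, a DNA sensor of the interferon-inducible Ifi200 family, was at 3.77, 2.97 and 3.34 CPM against 5.60, 5.24 and 9.93 CPM (log2 fold change 1.04 ± 0.30, SE). Lgals3bp, a secreted glycoprotein that interferon induces, was at 153, 133 and 133 CPM against 170, 178 and 262 CPM (log2 fold change 0.54 ± 0.14, SE). All 6 genes were named for their lack of overlap, which is therefore a description and no test. Tumor m12 was the highest for each, and without it the log2 fold change was 0.75 for Oas3, 0.70 for Oas2, 0.73 for Oas1g, 0.58 for Irf7, 0.69 for Ifi213 and 0.31 for Lgals3bp.

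The higher level was not carried by the same tumors in all genes of the list. Gbp2, a guanylate-binding protein induced by interferon gamma, was at 63.4, 26.3 and 83.8 CPM against 43.6, 236 and 306 CPM, and H2-K1, a classical MHC class I heavy chain, at 555, 193 and 384 CPM against 241, 927 and 1425 CPM. Gbp2, H2-K1, Isg15 and Cd8a, and the markers given as absent or as checks of tissue, fall outside the rule for naming genes and were picked after their values were seen. Tumor m10 thus resembled RCM1 tumors in Gbp2 and H2-K1 but not in Oas3 or Irf7. Vehicle tumor m1, a control by its title, reached 263 CPM of Gbp2 and 1669 CPM of H2-K1, near m11 and m12. Its Irf7 of 28.1 CPM lay below all 3 combination tumors.

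**Figure D2:**
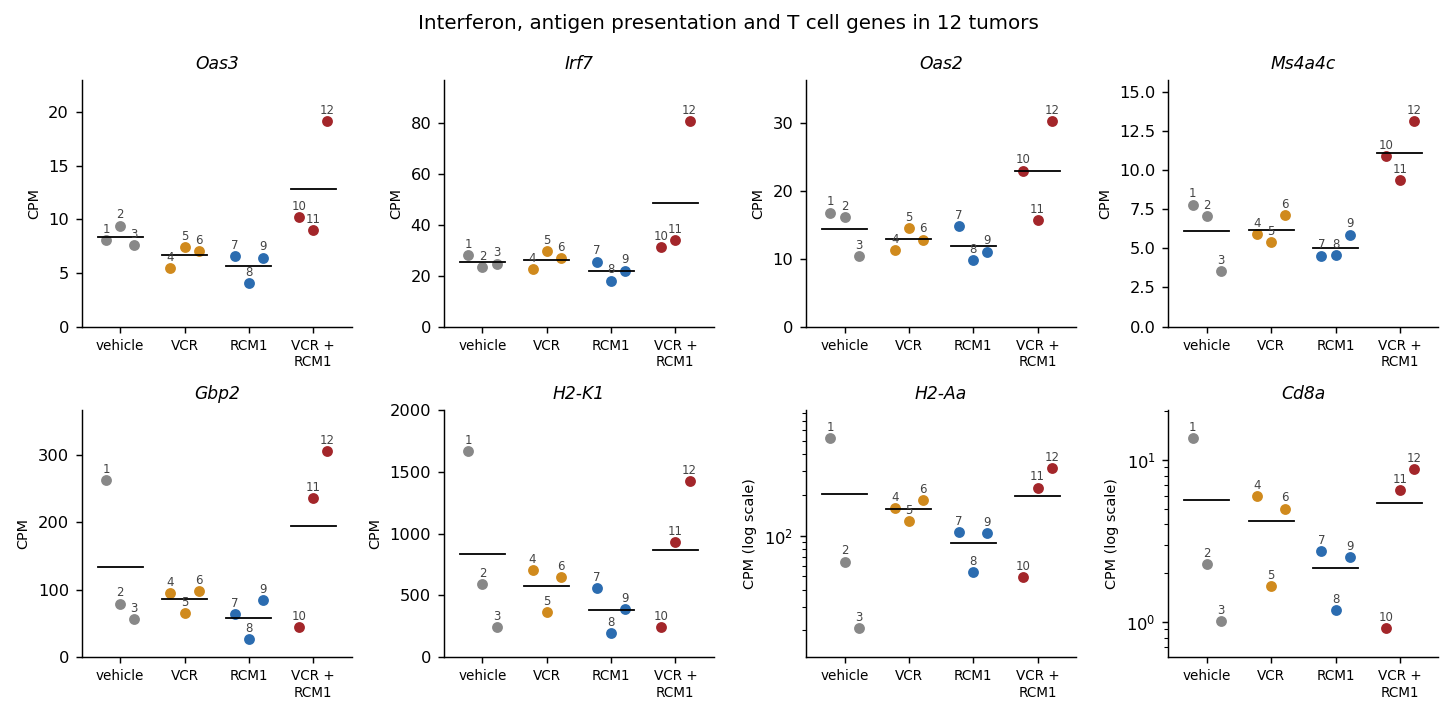
CPM of 8 genes (panels; the axis is logarithmic only where so labelled) in the 12 tumors, each point a tumor with its number, by group, with the group mean as a black line. In the upper row the 3 combination tumors lie above the 3 RCM1 tumors for each gene, whereas in the lower row m10 lies below m7 and m9 and vehicle tumor m1 is above m11.

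Immune genes that accompany T cells and antigen presentation had medians above 0 but overlapped between groups. MHC class II genes, which present peptides to CD4 T cells, had a median log2 fold change of 0.96 over 10 genes, 8 of them above 0, and summed to 716, 359 and 683 CPM in the RCM1 tumors and 316, 1372 and 1983 CPM in the combination tumors. Tumor m10 was the lowest of the 6, and the median was 0.42 without m12 and 1.39 without m10. H2-Aa, a class II chain, had a log2 fold change of 1.15 ± 0.92 (SE), and Ciita, the master regulator of class II genes, one of 1.26 ± 0.76 (SE), which without m12 were 0.64 and 0.81. Lymphocyte genes had a median of 0.89 over 17 tested genes, 16 of them above 0, at low levels that summed to 19.96, 13.7 and 23.1 CPM against 15.1, 41.8 and 51.4 CPM, and their median was 0.58 without m12. Cd8a, the co-receptor of cytotoxic T cells, was at 2.75, 1.18 and 2.52 CPM against 0.914, 6.54 and 8.74 CPM. Gzma, a granule protease of killer cells, did not overlap, at 0.596, 0.638 and 0.472 CPM against 0.944, 0.906 and 1.73 CPM (log2 fold change 1.06 ± 0.45, SE). Of the 17 lymphocyte genes, 2 did not overlap, both higher. The B cell marker Ms4a1 was at or under 0.192 CPM in each of the 6 tumors. Cxcl9, a chemokine that draws T cells, was at 9.97, 1.95 and 17.9 CPM against 8.53, 44.7 and 49.1 CPM (log2 fold change 1.78 ± 0.83, SE).

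Myeloid genes differed less. The macrophage and monocyte list had a median log2 fold change of 0.07, with 13 of 20 genes above 0 and 2 not overlapping, both higher, and it was -0.07 without m12. Csf1r, the receptor that macrophages depend on, was at 359, 454 and 331 CPM against 314, 354 and 402 CPM. Fcgr1, an IgG receptor, was at 40.0, 34.9 and 38.8 CPM against 40.3, 49.1 and 59.9 CPM (log2 fold change 0.39 ± 0.15, SE). Ly6c2, which marks inflammatory monocytes, was not called and did not overlap, at 1.95, 1.47 and 2.86 CPM against 5.24, 3.40 and 6.21 CPM (log2 fold change 1.24 ± 0.51, SE). Ms4a4c, a membrane protein found on monocytes and other leukocytes, was the one gene that DESeq2 on the 6 tumors called higher (adjusted p 0.00011). It was at 4.54, 4.57 and 5.89 CPM against 10.9, 9.35 and 13.2 CPM, with no overlap and m12 highest. Its log2 fold change in edgeR was 1.16 ± 0.26 (SE), not called, and it lay between 1.02 and 1.28 whichever tumor was left out. Mgl2, a lectin of a subset of macrophages and dendritic cells, was called lower by DESeq2 on the 6 tumors (adjusted p 0.013), at 7.12, 4.25 and 5.26 CPM against 2.38, 2.20 and 2.59 CPM (edgeR log2 fold change -1.21 ± 0.57, SE). Neutrophil genes had a median of 0.37 over the 6 of 13 that were tested, 0 of them without overlap, and Ly6g, Elane and Mpo were at or under 0.0641 CPM. Chemokines and myeloid growth factors had a median of 0.29 over 18 genes, 12 of them above 0 and 2 above without overlap, and it was 0.11 without m12.

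Transcripts of red blood cells were lower in the combination tumors. Haemoglobin chains and Alas2, the first enzyme of haem synthesis in red cell precursors, come from blood and reticulocytes in the tumor. Of the 6 tested erythroid genes all had a log2 fold change below 0, with a median of -3.72, and 5 of the 6 did not overlap, against a background of 2.63%. Hbb-bs, an adult beta globin, was at 142, 80.0 and 30.5 CPM in the RCM1 tumors and at 4.93, 1.91 and 7.05 CPM in the combination tumors. Its log2 fold change was -4.18 ± 1.62 (SE), not called by edgeR on 12 tumors (adjusted p 0.9999) and called by DESeq2 on the 6 tumors (adjusted p 0.00017). Hba-a1, an alpha globin, was at 101, 41.9 and 29.1 CPM against 4.17, 3.49 and 7.40 CPM (log2 fold change -3.51 ± 1.32, SE). The alpha globin copies Hba-a1 and Hba-a2, and the beta copies Hbb-bs and Hbb-bt, are near-identical, so the split of reads between them is uncertain, although all 4 were lower. Alas2 was at 4.67, 2.46 and 1.35 CPM against 0.640, 0.226 and 0.577 CPM (log2 fold change -2.54 ± 1.01, SE).

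The same genes were split within the tumors that received no RCM1. Hbb-bs stood at 100, 131 and 3.73 CPM in the vehicle tumors and at 155, 2.75 and 1.53 CPM in the tumors given VCR alone. Both of these groups thus held tumors at the high and at the low level, and the SE in the 12-tumor fit carries that spread. Whether blood left in the tumor at dissection differed was not tested.

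Tfrc, the transferrin receptor through which dividing cells and red cell precursors take up iron, was also lower and did not follow haemoglobin tumor by tumor. It was at 103, 158 and 84.5 CPM in the RCM1 tumors and at 69.2, 56.0 and 50.7 CPM in the combination tumors, with no overlap and m8 highest. The log2 fold change was -0.97 ± 0.24 (SE), with an unadjusted p of 0.0019 in edgeR (adjusted p 0.9999) and an adjusted p of 0.0056 in DESeq2 on the 6 tumors. Tfrc was lower with VCR alone too, by a log2 fold change of -0.88 ± 0.24 (SE) and an adjusted p of 0.092 in edgeR. The interaction term, which sets the effect of VCR on RCM1 against that on vehicle, was -0.10 ± 0.34 (SE) for Tfrc. In the 2 comparisons, which share no tumor, every VCR-treated tumor thus lay below every tumor without VCR on the same background.

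**Figure D3:**
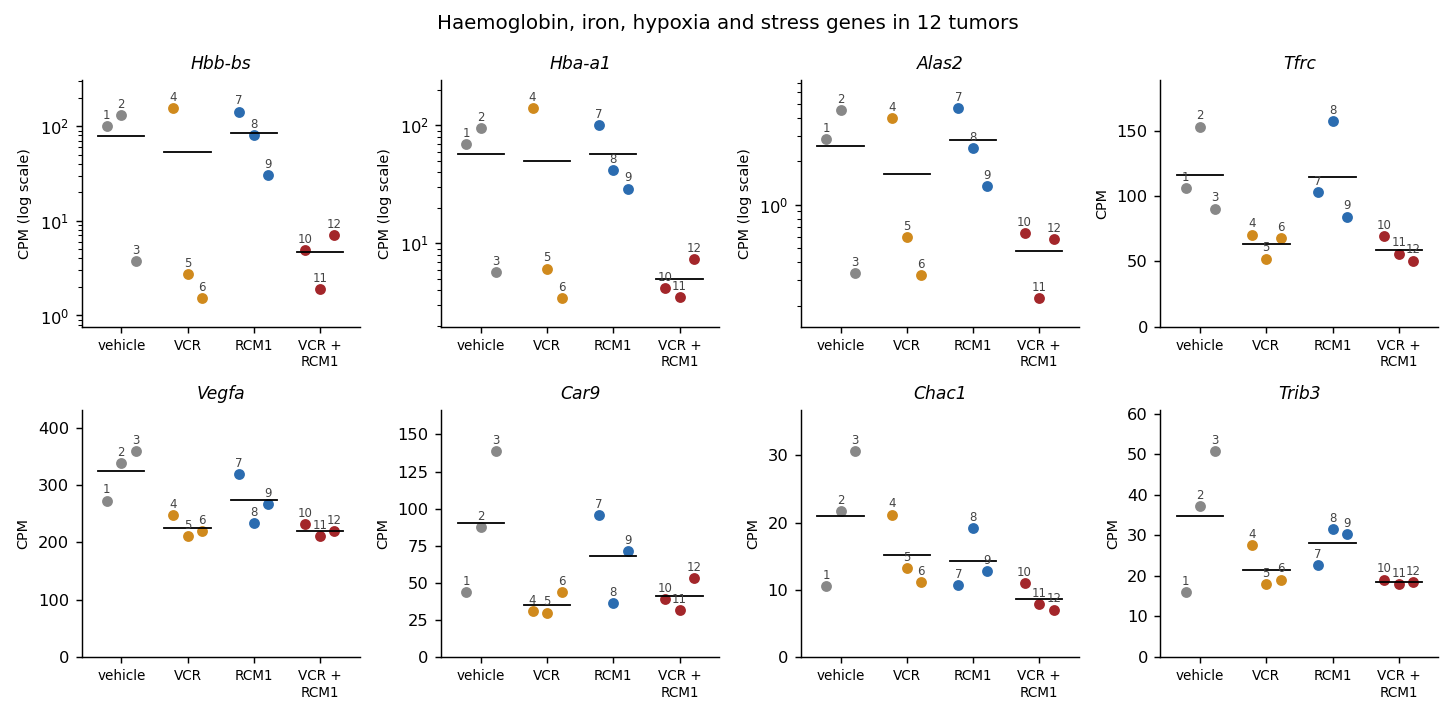
CPM of 8 genes (panels; logarithmic axis only where so labelled, otherwise from 0) in the 12 tumors, with tumor numbers and group means as black lines. Haemoglobin genes and Alas2 are low in the 3 combination tumors and split in the vehicle and VCR groups, while Tfrc is lower wherever VCR was given.

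Transcripts of the direct targets of both drugs differed little between the combination and RCM1 tumors. Their level does not report the proteins on which the drugs act. Tubulins are the proteins that VCR binds. The tubulin list also holds Tbca, Tbcb, Tbcc, Tbcd, Tbce and Ttc5, which are not tubulins, and Tubg1, a gamma tubulin. This mixed list had a median log2 fold change of -0.06 over 19 genes, 0 of them called and 0 without overlap. Tubb5, the main beta tubulin here, was at 1604, 2028 and 1612 CPM against 1500, 1701 and 1706 CPM (log2 fold change -0.10 ± 0.10, SE). Tuba1a, an alpha tubulin, was at 538, 659 and 427 CPM against 463, 495 and 470 CPM (log2 fold change -0.19 ± 0.13, SE). Microtubule-associated proteins had a median of -0.01 over 21 genes. Tumor m8 was highest for both tubulins, and the combination tumors lay within the range of the RCM1 tumors for Tuba1a. With VCR alone the tubulin list had a median of 0.19, with 16 of 19 genes above 0. Of the 19, 4 were called, all higher, against 5.54% of all genes in that comparison. The interaction was called for 0 genes of the tubulin list by edgeR and for 3 by DESeq2 on all 12 tumors, all below 0.

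Genes of mitosis were as close. FOXM1 and its mitotic targets had a median of 0.00 over 20 genes, with members between -0.07 and 0.13, the spindle checkpoint list one of -0.01 (between -0.10 and 0.08) and DNA replication genes one of 0.03 (between -0.06 and 0.21). None of these 61 genes was without overlap. Foxm1 was at 148, 179 and 167 CPM in the RCM1 tumors and 172, 171 and 151 CPM in the combination tumors, a log2 fold change of 0.00 ± 0.09 (SE). The mRNA level does not report where the FOXM1 protein is. Mki67, which marks cycling cells, was at 446, 594 and 514 CPM against 555, 537 and 468 CPM (log2 fold change 0.01 ± 0.14, SE). Aurkb, the kinase Aurora B, was at 90.3, 118 and 104 CPM against 95.5, 102 and 99.2 CPM. RCM1 tumors m7 and m8 were the lowest and the highest of the 6 for each of these 3 genes, so the combination tumors lay inside the range of the RCM1 tumors. With VCR alone the FOXM1 list had a median of 0.19, with 16 of 20 genes above 0. Of the 20, 4 were called, all higher, against 5.54% of all genes in that comparison. The interaction was called for 0 of the 20 by edgeR and by DESeq2 on all 12 tumors.

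Genes of cell death and drug export mostly overlapped likewise. The p53 targets had a median log2 fold change of 0.01 over 19 genes, with 1 higher and 1 lower gene without overlap, and the BCL2 family one of 0.03 over 19 genes with 0 without overlap. Bax, the pore-forming death effector, was counted with the p53 targets and did not overlap. It was at 72.6, 71.0 and 70.3 CPM against 73.2, 76.3 and 80.8 CPM (log2 fold change 0.11 ± 0.07, SE), not called. Cdkn1a, the p53-induced cell cycle inhibitor p21, was at 46.0, 29.7 and 51.5 CPM against 40.8, 45.5 and 53.6 CPM. Drug-exporting ABC transporters had a median of 0.05 over 12 genes. Abcb1b, a P-glycoprotein that pumps VCR out of cells, was at 43.0, 41.8 and 48.2 CPM against 48.5, 52.9 and 44.8 CPM (log2 fold change 0.14 ± 0.12, SE). Genes of folate uptake and metabolism had a median of 0.01 over 12 genes. Only uptake is the route that the folic acid on the particles addresses. Folr1, the alpha folate receptor, was at or under 0.0958 CPM in the 6 tumors, and Folr2, the folate receptor of macrophages, was at 32.2, 31.2 and 21.3 CPM against 24.9, 18.2 and 25.7 CPM.

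**Figure D4:**
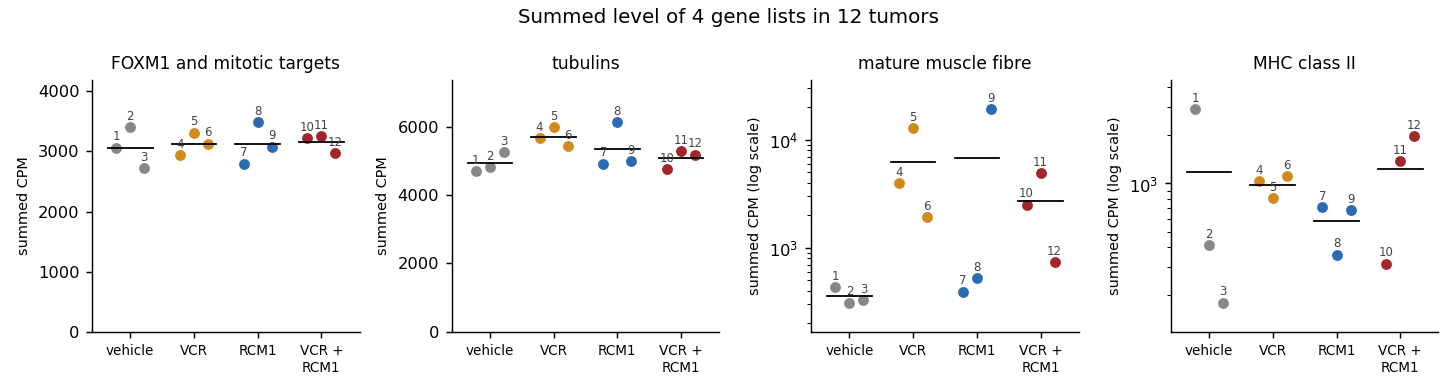
Summed CPM of 4 gene lists (panels; logarithmic axis only where so labelled, otherwise from 0) in the 12 tumors, with tumor numbers and group means as black lines. FOXM1 targets overlap between all groups. The tubulin list overlaps between the RCM1 and combination tumors, while every tumor given VCR alone lies above every vehicle tumor. Muscle fibre genes are highest in m9, and MHC class II genes are highest in m1, m12 and m11.

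Stress genes downstream of ATF4, the factor that responds to amino acid shortage and unfolded proteins, had a median of -0.08 over 20 genes, 13 of them below 0 and 1 without overlap. Without m9 the median was 0.03, with 10 of 20 above 0. Chac1, which degrades glutathione and is the gene the study singles out, was at 10.7, 19.2 and 12.8 CPM in the RCM1 tumors and at 10.9, 7.83 and 7.01 CPM in the combination tumors. Its log2 fold change of -0.73 ± 0.37 (SE) was not called (edgeR adjusted p 0.9999), and the groups overlapped through m7 and m10. An exact permutation test of the 3 against 3 tumors gave a two-sided p of 0.2. The log2 fold change of Chac1 ran from -0.94 to -0.45 as each tumor was left out, nearest to 0 without m8. The study picked Chac1 from the combination against vehicle, which is another contrast. It also rests on qRT-PCR, on fewer CHAC1-positive cells than with either single agent, and on a knockdown. Trib3, a pseudokinase that ATF4 and CHOP induce, did not overlap, at 22.7, 31.5 and 30.3 CPM against 19.1, 17.9 and 18.5 CPM (log2 fold change -0.61 ± 0.32, SE). DESeq2 on the 6 tumors called Trib3 and did not call Chac1. Ddit3, the gene of CHOP, was at 28.5, 30.4 and 32.8 CPM against 27.3, 23.5 and 29.7 CPM (log2 fold change -0.19 ± 0.24, SE), and chaperones of the endoplasmic reticulum had a median of -0.03 over 18 genes. With VCR alone 19 of the 20 ATF4 genes lay below 0, with a median of -0.27 and 0 called, and Chac1 had a log2 fold change of -0.46 ± 0.37 (SE).

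In hypoxia and glycolysis, all 20 genes were below 0, with a median of -0.24 (members between -0.72 and -0.09), and 1 of the 20 did not overlap. The median ran from -0.40 without m8 to -0.12 without m7, and without m9 3 of the 20 were above 0. Vegfa, which drives vessel growth, was the gene without overlap, at 319, 234 and 267 CPM against 231, 211 and 220 CPM (log2 fold change -0.31 ± 0.13, SE). Car9, a carbonic anhydrase that HIF-1 induces, was at 95.8, 36.1 and 71.1 CPM against 38.9, 31.7 and 53.01 CPM (log2 fold change -0.72 ± 0.41, SE), with m7 highest and m8 within the combination tumors. Without m7 the log2 fold change was -0.18 for Vegfa and -0.38 for Car9. VCR alone lowered Vegfa by a log2 fold change of -0.52 ± 0.13 (SE), which edgeR called (adjusted p 0.080), and 18 of the 20 genes lay below 0 with VCR alone. Of the 20, 4 were called, against 5.54% of all genes in that comparison. Endothelial genes did not differ in parallel on RCM1. They had a median of -0.04 over 18 genes, and Pecam1, the vessel marker CD31, was at 54.1, 49.7 and 55.9 CPM against 49.5, 52.0 and 49.8 CPM (log2 fold change -0.08 ± 0.13, SE).

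Cholesterol synthesis genes were all below 0 as well, with a median of -0.20 over 20 genes (members between -0.65 and -0.02) and 0 without overlap. Tumor m8 was the highest of the 6 in their sum, at 2824 CPM beside 1997 and 1712 CPM in the other RCM1 tumors and 1979, 2085 and 1635 CPM in the combination tumors. The median of the list ran from -0.35 without m9 to 0.03 without m8. Dhcr7, the last enzyme of the pathway, was at 18.97, 31.6 and 15.2 CPM against 16.4, 15.7 and 13.9 CPM (log2 fold change -0.52 ± 0.21, SE), which was -0.16 without m8. Among clock genes 13 of 16 were below 0, with a median of -0.20, and 3 of 16 lay below without overlap. Ciart, a repressor of the CLOCK and BMAL1 pair, was at 17.4, 17.1 and 11.5 CPM against 10.1, 8.70 and 9.06 CPM (log2 fold change -0.72 ± 0.25, SE). With VCR alone Ciart had a log2 fold change of -0.89 ± 0.25 (SE), which edgeR called (adjusted p 0.093), and its interaction term was 0.17 ± 0.35 (SE). Tef, a clock output factor, was at 111, 123 and 105 CPM against 97.4, 94.8 and 96.6 CPM (log2 fold change -0.23 ± 0.10, SE). The hours at which tumors were taken are not given in the sources used here, and their part in these values was not tested.

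Genes with the smallest p among those below without overlap included metabolic enzymes. Acss2, which makes acetyl-CoA from acetate, was at 3.05, 4.34 and 3.24 CPM against 2.44, 2.62 and 2.05 CPM (log2 fold change -0.58 ± 0.20, SE). Mmab, of the vitamin B12 pathway, was at 23.0, 28.2 and 23.9 CPM against 20.6, 20.5 and 20.9 CPM (log2 fold change -0.28 ± 0.09, SE), and Slc25a42, which carries coenzyme A into mitochondria, at 7.05, 6.74 and 6.48 CPM against 5.18, 5.01 and 4.13 CPM (log2 fold change -0.50 ± 0.15, SE). Jrk, B3gat2, Cyp4b1 and Gm13205 were the other 4 of these lower genes, with log2 fold changes of -0.37, -0.62, -0.95 and -0.78. On the higher side Slc5a5, the iodide transporter, was at 1.23, 1.44 and 1.45 CPM against 2.59, 2.62 and 1.76 CPM (log2 fold change 0.76 ± 0.22, SE). Dmbt1, a scavenger receptor protein, was under 1 CPM in the 6 tumors, at 0.596, 0.990 and 0.944 CPM against 0.274, 0.582 and 0.641 CPM (log2 fold change -0.76 ± 0.34, SE).

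The other genes that DESeq2 called lower on the 6 tumors include predicted genes and RNA copies. Gm52236, a predicted gene, was at 39.6, 38.9 and 41.4 CPM against 17.1, 21.1 and 17.3 CPM, with no overlap (log2 fold change -1.11 ± 0.49 in edgeR, SE). Its level varied more widely elsewhere, at 18.1, 11.7 and 62.7 CPM in the vehicle tumors and 62.8, 32.7 and 32.5 CPM with VCR alone. Rn7s1 and Rn7s2, copies of the 7S RNA of the signal recognition particle, held the same value in every tumor and count as 1 measurement, at 6.75, 8.56 and 5.48 CPM against 3.87, 3.49 and 3.11 CPM. The 7S RNA is not polyadenylated, and Gm2026 is a predicted gene at 10.8, 7.37 and 7.84 CPM against 4.39, 3.75 and 3.62 CPM. The levels of the 7S copies rest on how reads were shared among them and are uncertain.

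Muscle fibre genes were set by m9. The 22 genes had a median log2 fold change of -1.40, all below 0, with 0 without overlap, and without m9 the median was 3.95 with 22 of 22 above 0. Ckm, the creatine kinase of muscle, was at 6.26, 11.1 and 2262 CPM against 223, 526 and 35.2 CPM, so the RCM1 tumors held both the lowest and the highest value. Its log2 fold change of -1.54 ± 1.84 (SE) became 4.90 without m9. Myh4, the myosin of fast fibres, was at 1.42, 10.98 and 4899 CPM against 545, 1229 and 61.4 CPM. The 6 tumors that received VCR lay between 744 and 12796 CPM in the sum of the list, while 5 of the 6 without VCR lay between 311 and 522 CPM and m9 was at 19410 CPM. Desmin (Des), at 573 CPM in m9 and between 11.7 and 201 CPM in the others, is on both the myogenic and the pericyte list, whose medians were -0.21 and -0.16. Whether muscle next to the graft was taken along was not tested. Adipocyte genes, another tissue of the flank, followed m10, with Adipoq at 0.232, 0.670 and 0.409 CPM against 4.78, 0.550 and 0.0641 CPM. Skin keratins were near 0, with Krt5, Krt14 and Krt1 at or under 0.213 CPM in the 6 tumors. Collagen and matrix genes (-0.04 over 20), Schwann cell genes (-0.04 over 12), heat shock genes (-0.03 over 16) and immediate early genes (0.07 over 18) had medians near that of all genes.

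Adding VCR to vehicle, by contrast, gave 975 genes at an adjusted p under 0.1 in the same edgeR fit (5.54% of 17599), 491 higher and 484 lower. No tumor is shared between that comparison and the one on RCM1. Of the 491 higher genes 238 were higher and 253 lower on RCM1, with a median log2 fold change of -0.01 there against 0.53 on vehicle. Of the 484 lower genes 276 were higher and 208 lower on RCM1, with a median of 0.02 against -0.44 on vehicle. None of the 975 was called on RCM1. The share above 0 on RCM1 was 48.5% for the higher and 57.0% for the lower genes, beside 47.9% of all genes. These shares moved with single tumors. For the higher genes the share was 28.9% without m7, 78.2% without m9 and 38.2% in DESeq2 on all 12 tumors. For the lower genes it was 33.1% without m1, 42.1% without m10 and 72.1% without m3. No direction was read from them. The count of 975 moved far both ways, with 0 calls without m2, m4 or m5, 1 without m11 and 5 with the level of muscle fibre genes as a covariate, and 1287 without m3, 1401 without m9, 1998 without m6 and 2276 in DESeq2 on all 12 tumors. The difference between the 2 effects was tested by the interaction term of the 12-tumor fit, and the tools differed. The edgeR fit called 0 genes (0%), with 2437 at an unadjusted p under 0.05 and a smallest adjusted p of 0.293. DESeq2 on all 12 tumors called 461 (2.62%), 196 above and 265 below 0, with a smallest adjusted p of 2.7e-07. Across the 17599 genes, which are not independent replicates, Pearson's r between the 2 sets of log2 fold changes was -0.39 with m9 and 0.50 without it, and Spearman's rho -0.12 and 0.06.

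**Figure D5:**
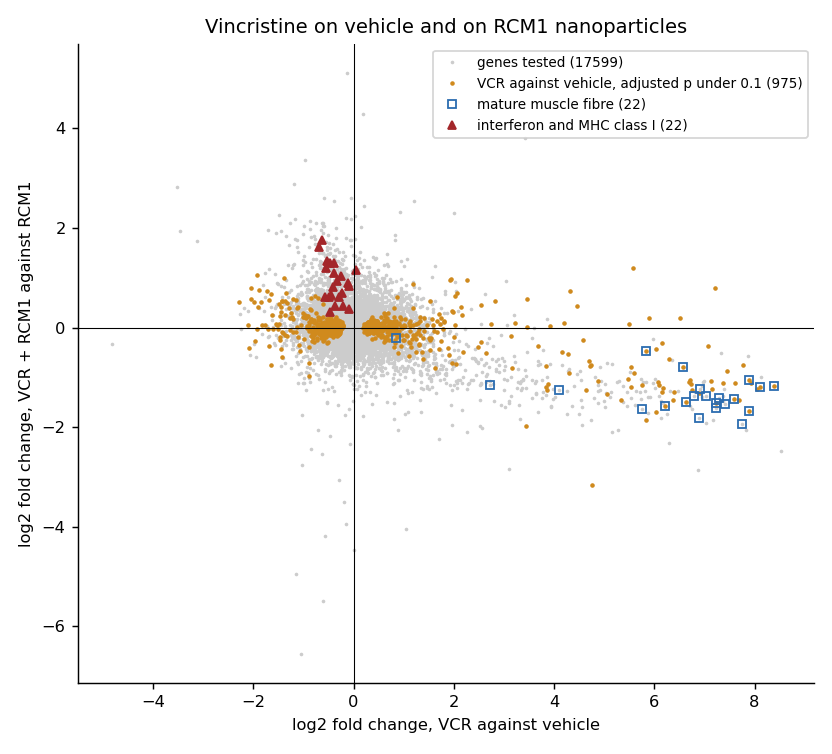
Log2 fold change upon adding VCR to vehicle (horizontal axis) and to RCM1 (vertical axis) of 17599 genes, with the 975 genes called on vehicle in orange, muscle fibre genes as open squares and interferon genes as triangles. The called genes lie on both sides of 0 on the vertical axis, muscle genes lie to the right and below 0, and interferon genes lie above 0 and mostly to the left.

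Muscle fibre genes had the widest contrast between the settings. With VCR alone all 22 were above 0, with a median of 6.97 and 9 called (5.54% of all genes were), against -1.40 and 0 called on RCM1. Their interaction had an unadjusted p under 0.05 in edgeR for 21 of the 22, 0 of them called, and DESeq2 on all 12 tumors called 18, all below 0. Without m9 the median on RCM1 was 3.95, as given above. In the interferon list 1 of the 22 genes was above 0 with VCR alone, the median was -0.39 and 0 were called, against 22 of 22 and 0.87 on RCM1. The summed level of the list was 6288, 2772 and 1801 CPM in the vehicle tumors and 3283, 2110 and 3092 CPM with VCR alone. Vehicle tumor m1 was thus the highest, while m2 and m3 overlapped the VCR tumors, and m1 also enters the interaction. The interaction of the list had a median of 1.15, with 11 of 22 members at an unadjusted p under 0.05 and 0 called in edgeR, and DESeq2 on all 12 tumors called 1. Oas3, outside the list, had an interaction of 1.50 ± 0.40 (SE), with an adjusted p of 0.293 in edgeR and 0.028 in DESeq2 on all 12 tumors. Ms4a4c had an interaction of 1.15 ± 0.37 (SE), with an adjusted p of 0.293 in edgeR and 0.087 in DESeq2 on all 12 tumors. Endothelial genes had a median of 0.56 with VCR alone, 16 of 18 above 0 and 7 called, all higher, against -0.04 on RCM1, where the median was 0.03 with 13 of 18 above 0 without m9. DESeq2 on all 12 tumors called the interaction of 5 of the 18, all below 0. Rgs5, a pericyte gene, was at 47.0, 46.7 and 50.1 CPM in RCM1 tumors and 39.5, 38.3 and 39.8 CPM in combination tumors, and at 32.2, 29.4 and 27.4 CPM in vehicle tumors and 37.4, 53.6 and 44.3 CPM in VCR tumors. Its log2 fold change was -0.29 ± 0.11 (SE) on RCM1 and 0.60 ± 0.11 (SE) on vehicle, the latter called (edgeR adjusted p 0.065), with an interaction of -0.89 ± 0.16 (SE) that had an adjusted p of 0.293 in edgeR and 0.001 in DESeq2 on all 12 tumors. Over all tested genes, 84 lay above without overlap on RCM1 and below without overlap on vehicle, 42 the reverse, 50 above in both and 46 below in both.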

How the data were processed

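RNA of 12 tumors, 3 in each of 4 groups taken from the sample titles, was sequenced from polyadenylated TruSeq libraries. The labels call the libraries non-stranded, so overlapping antisense genes cannot be told apart. The authors deposited kallisto tables of estimated counts and TPM per RefSeq transcript of GRCm38; the kallisto version is not given in the sources used here. The TPM values were not used for tests. Estimated counts were summed over 120289 of 120299 transcripts into 38894 genes and rounded. Genes passing filterByExpr (minimum count 10) in the 12 tumors were scaled by TMM and fitted in edgeR 4.0.16 (quasi-likelihood F test, 4 groups, Benjamini-Hochberg, threshold 0.1, the one the study used). SEs come from the log2 fold change and its F. Alternatives were DESeq2 1.42.0 and limma-voom 3.58.1 fits, filters, scalings and left-out tumors. The interaction of VCR and RCM1 was taken from the edgeR fit and from DESeq2 on all 12 tumors. The exact permutation test used log2(CPM + 0.1). The code was tested on simulated data. The comparison, its members and the gene lists were chosen with earlier results of these data known. Named genes were 5 genes the study or an earlier analysis singled out, genes called by edgeR or by DESeq2 on the 6 tumors (up to 10 each way), the 8 higher and 8 lower non-overlapping genes of smallest p with a mean of at least 1 CPM, and in each of 32 lists the first 2 members and the 2 of smallest p. No set test was run.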

Additional observations from a re-analysis of the deposited data

Results flagged for a closer look

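Oas3, Slc25a42 and Rgs5 were picked out because VCR moved them one way in every tumor on RCM1 and the other way in every tumor on vehicle. Over all tested genes, 84 lay above on RCM1 and below on vehicle in this way, and 42 the reverse. The pick used the same 12 tumors as the interaction, so the p-values that follow describe picked genes and are no test. The interaction, on the log2 scale, was 1.50 ± 0.40 (SE) for Oas3, -0.86 ± 0.21 (SE) for Slc25a42 and -0.89 ± 0.16 (SE) for Rgs5, with an edgeR adjusted p of 0.293, 0.293 and 0.293. None of the 3 passed the threshold in edgeR, whereas DESeq2 on all 12 tumors called all 3, with an adjusted p of 0.028 for Oas3, 0.034 for Slc25a42 and 0.001 for Rgs5. It called 461 genes in all, against 0 in edgeR.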

How the results depend on the processing

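All 21 edgeR and limma-voom fits, each tumor left out in turn included, called 0 genes between the combination and RCM1 tumors, with 192 to 736 genes at an unadjusted p under 0.05 and a smallest adjusted p of 0.1884. DESeq2 on all 12 tumors also called 0. On the 6 tumors alone DESeq2 called 13, and 19 with no filter. Leaving out one tumor of those 6, an alternative chosen after seeing the data, it called 18 without m7, 23 without m8, 137 without m9, 197 without m10, 9 without m11 and 8 without m12, with 7 to 13 of the 13 genes among them; without m10 they include 10 of the 22 interferon genes. The log2 fold change was followed through every alternative for 45 of the 137 genes named by the rule. Others of the 137 also changed sign with a tumor left out, such as Myh4 (-2.43 to 6.61), Adipoq (-0.51 to 2.60), Csf1r (-0.20 to 0.05), Aurkb (-0.16 to 0.03) and Cdkn1a (-0.06 to 0.29). Of the 45, 41 kept their sign in every alternative. The sign turned for Ckm (1.554 in limma-voom, 0.9695 with the muscle fibre level as a covariate, -2.557 to 4.902 with a tumor left out), Foxm1 (0.007131 with the stricter filter, 0.0008004 in limma-voom, -0.07225 to 0.06312 with a tumor left out), Mki67 (-0.0002065 with no filter, -0.0004674 in DESeq2 on the 6 tumors, -0.002514 with the covariate, -0.09098 to 0.1151 with a tumor left out) and Tubb5 (-0.1596 to 0.02426 with a tumor left out). The median of 10 of the 32 lists kept its sign throughout and that of 22 did not. With a tumor left out, medians ran from -0.0448 to 0.05246 for p53 targets, -0.477 to 0.702 for myogenic genes and -1.99 to 3.947 for muscle fibre genes (both highest without m9), -0.9479 to 1.106 for adipocyte genes (lowest without m10) and -0.1154 to 0.1031 for Schwann cell genes. On RCM1, the genes that VCR alone called higher had a median of -0.07264 when called at 0.05 (3 genes) and 0.228 with the covariate (5 genes). With a tumor left out it ran from -0.07016 to 1.308, where the latter is the value of 1 gene, without m11. Without m9 it was 0.1606 over 844 genes. Those called lower had -0.06027 to 0.04497 with a tumor left out. The number of genes VCR alone called, 975, was 648 with no filter, 2276 in DESeq2 on all 12 tumors, 5 with the covariate and 0 to 1998 with a tumor left out. The number of interaction calls, 0, was 461 in DESeq2 on all 12 tumors, 1 with the covariate and 0 to 1 with a tumor left out. No median could be given without m2, m4 or m5, where VCR alone called no gene, nor for lower genes without m11 or with the covariate. The cause of these shifts was not tested. No paired analysis was possible because the tumor numbers differ in every group and none is shared.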
